A study of Caenorhabditis elegans with 2 samples.

Results

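The genes described here are 10 transcription factor genes that pattern the anterior-posterior body axis of Caenorhabditis elegans. They were chosen by name out of 19973 nuclear protein-coding genes, with earlier results of these data known. They are the 6 Hox genes ceh-13, lin-39, mab-5, egl-5, nob-1 and php-3, the posterior regulators pal-1 and vab-7, and the Hox cofactors unc-62 and ceh-20. For each gene, every peak was collected whose summit, the deposited position of its highest point, lay inside the gene or within 2000 bp of it. The peaks come from chromatin immunoprecipitation followed by sequencing (ChIP-seq) with an anti-GFP antibody on whole young adult worms, 63 hours after synchronization as starved L1 larvae. The strain, OP636, is unc-119(tm4063) with the integrated transgene wgIs636, which expresses the T-box factor TBX-9 with a C-terminal GFP-FLAG tag, and the labels give the sex as pooled male and female. There were 2 libraries, biological replicates of 1 group in the labels, and no second condition. An experiment that the labels name as a possible control was not analysed here. Whole animals were used, so a site bound in few cells and a site weakly bound in many cannot be told apart.

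Hox proteins are homeodomain transcription factors that give cells along the body axis their regional identity. In C. elegans ceh-13, a labial homologue, acts in the anterior, lin-39 in the mid-body and vulva, mab-5 in the posterior body and egl-5 in the tail, and nob-1 and php-3 are Abdominal-B-like genes of the posterior end. pal-1, the caudal homologue, specifies posterior embryonic lineages, and vab-7, the even-skipped homologue, patterns posterior muscle and epidermis. unc-62 (Meis) and ceh-20 (PBX) encode homeodomain partners that bind DNA with Hox proteins. TBX-8 and TBX-9 are related T-box factors that act redundantly in embryonic morphogenesis of the body.

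4 ce11 peak lists were used. The relaxed lists, which the labels' text files describe as peaks and background, held 30000 peaks for both libraries pooled, 25659 for replicate 1 and 30000 for replicate 2. The list selected by irreproducible discovery rate (IDR), which keeps peaks that rank consistently high, held 169. Rank 1 is the highest deposited signal value of a list. Ranks are compared between lists rather than signal values, because the scaling of the signal is not stated. With 1 group, no test between conditions exists, so members are described by counts beside the same count over all protein-coding genes or all peaks.

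The DNA is shown for 5 of the genes' peaks, to set their letters beside the motifs searched. They had the highest pooled ranks among peaks that overlap a relaxed peak of both replicates and leave at least 100 bases free of annotated UTRs around the summit. The stronger unc-62 peaks, with summits at 4504160, 4501350 and 4509694, lie in or beside UTRs and are not shown. Each line reaches up to 100 bp on either side of the summit and ends at the first UTR base. The letters are from the RefSeq sequence of WBcel235 (ce11), 5′ to 3′. Capitals mark matches to the motifs searched, on either strand: the T-box core GGTGTG and its longer forms, the Hox-PBX motif TGATNNAT and the Meis motif TGACAG. 3 of the 5 hold no match.
nob-1 and php-3, chrIII:12077369-12077502, plus strand: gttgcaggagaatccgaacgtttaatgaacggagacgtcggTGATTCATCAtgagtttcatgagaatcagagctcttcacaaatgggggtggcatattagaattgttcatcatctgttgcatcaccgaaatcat
pal-1, chrIII:4808027-4808227, plus strand: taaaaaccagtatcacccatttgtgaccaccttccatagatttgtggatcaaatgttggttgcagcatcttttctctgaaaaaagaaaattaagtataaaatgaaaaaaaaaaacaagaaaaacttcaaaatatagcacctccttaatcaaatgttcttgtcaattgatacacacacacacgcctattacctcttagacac
unc-62, chrV:4503349-4503549, plus strand: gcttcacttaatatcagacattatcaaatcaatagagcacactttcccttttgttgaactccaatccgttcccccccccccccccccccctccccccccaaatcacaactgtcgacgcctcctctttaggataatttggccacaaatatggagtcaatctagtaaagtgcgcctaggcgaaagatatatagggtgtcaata
egl-5, chrIII:7815071-7815271, plus strand: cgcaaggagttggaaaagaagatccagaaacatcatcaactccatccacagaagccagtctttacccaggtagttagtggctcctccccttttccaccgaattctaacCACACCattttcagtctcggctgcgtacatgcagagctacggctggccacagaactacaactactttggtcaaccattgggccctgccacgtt
unc-62, chrV:4510571-4510771, plus strand: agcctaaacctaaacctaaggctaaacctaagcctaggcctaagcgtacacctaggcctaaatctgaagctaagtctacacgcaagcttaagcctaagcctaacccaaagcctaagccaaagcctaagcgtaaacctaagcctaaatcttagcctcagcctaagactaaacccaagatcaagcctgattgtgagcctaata

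The other windows with a T-box core are shown next. They were chosen after the motif search, and neither peak was found in both replicates.
nob-1 and php-3, chrIII:12078372-12078572, plus strand: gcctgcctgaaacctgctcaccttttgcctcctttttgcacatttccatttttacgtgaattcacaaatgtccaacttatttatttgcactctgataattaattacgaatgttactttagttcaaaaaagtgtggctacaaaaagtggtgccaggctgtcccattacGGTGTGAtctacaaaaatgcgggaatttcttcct
vab-7, chrIII:10921596-10921796, plus strand: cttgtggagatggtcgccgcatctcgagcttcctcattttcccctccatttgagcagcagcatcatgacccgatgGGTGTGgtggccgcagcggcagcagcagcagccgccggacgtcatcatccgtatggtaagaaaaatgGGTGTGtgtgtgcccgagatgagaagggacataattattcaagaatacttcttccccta

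Relaxed peaks were present at all 10 genes, and none of the genes had an IDR peak. All 10 had at least 1 pooled relaxed summit in the window, against 80.1% of all protein-coding genes. The same held in each replicate alone, with 10 of 10 in both, against 78% of genes in replicate 1 and 81.9% in replicate 2. In the IDR list the count was 0 of 10, against 1.48% of genes. A count of 0 in 10 permits a share as high as 30%, so 10 genes cannot show a share below that of other genes. The members' windows were longer than usual, with a median of 9.29 kb against 6.03 kb for all genes. Among the 10146 genes whose windows fell within the members' range of lengths, 85.4% had a pooled peak.

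The nearest IDR summits lay well outside the windows. The closest to any member was 33579 bp from lin-39, in a peak whose nearest coding start was that of cgh-1 and which lay beside the noncoding genes C07H6.15 and C07H6.17, with an IDR signal value of 180.6. The next was 37539 bp from egl-5, with the ribosomal protein gene rpl-35 as the nearest coding start and a signal of 124.9. For ceh-13 the distance was 60598 bp, for vab-7 63725 bp and for mab-5 71226 bp. It was 312542 bp for unc-62, the farthest. The tbx-9 gene itself, at 10340006 to 10341858 on III, was no near neighbour: vab-7, the closest member, lay 578.5 kb from it.

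In all, 41 pooled peaks had their summit in the members' windows. With the overlap of nob-1 and php-3 counted once, these windows cover 92.3 kb, so the density was 0.444 pooled peaks per kb against 0.299 per kb of the nuclear genome. In replicate 1 there were 34 peaks (0.368 per kb against 0.256) and in replicate 2 there were 37 (0.401 against 0.299). Taken gene by gene, the median pooled density of the members' windows was 0.374 per kb. Over the windows of all genes the median was 0.297 and the 90th percentile 0.744. The density was uneven among the genes, and its order depended on the list. In the pooled list it was highest at pal-1, with 0.787 per kb, and unc-62, with 0.723, and lowest at lin-39, with 0.167, and mab-5, with 0.188. In replicate 1 it was 0.667 at unc-62, 0.475 at nob-1 and 0.450 at pal-1, and in replicate 2 0.611, 0.475 and 0.450. In replicate 2 lin-39 had 0.417 per kb, and vab-7 was lowest with 0.103. unc-62 alone held 13 of the 41 pooled peaks.

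**Figure D1:**
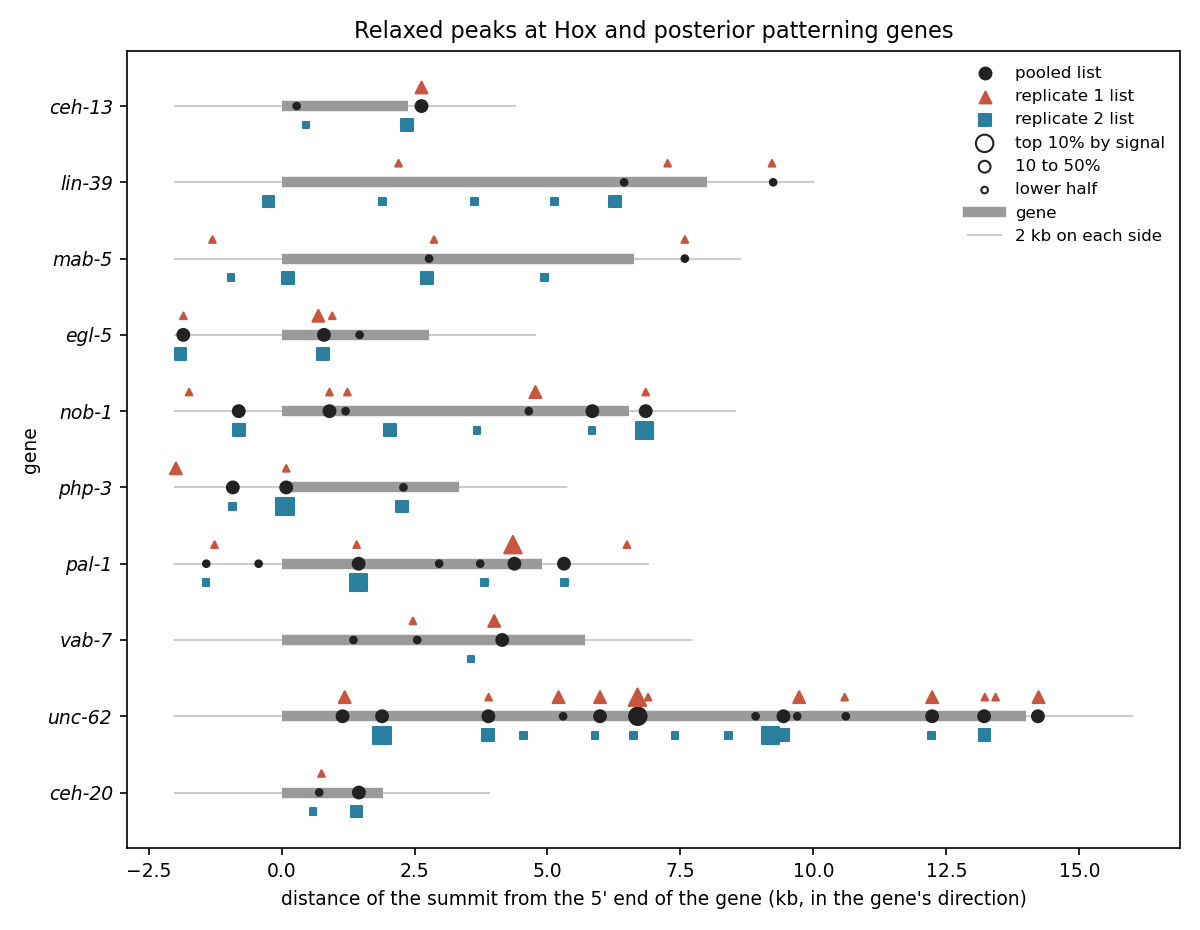
Relaxed peaks at the 10 genes, with the summit's distance from the 5' end of the gene in kb on the horizontal axis and 1 row per gene; black circles are pooled peaks, red triangles replicate 1 and blue squares replicate 2, and larger symbols are peaks with higher-ranked signal. unc-62 carries 13 pooled peaks, while lin-39, mab-5, ceh-13 and ceh-20 carry 2 each.

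The members' pooled peaks had a median rank of 12580 against 15000.5 for the list, and a median signal value of 26.8 against 25.1. The strongest had a signal of 51.7, where the strongest nuclear peak of the list had 304.5. Only 1 of the 41, at unc-62, stood among the top 10% by signal, and 21 stood in the top 50%. In replicate 1 the median rank was 15982 against 12830 for the list, so there the members' peaks ranked lower than the list as a whole. Of the 34 peaks in replicate 1, 2 stood in the top 10% and 12 in the top 50%. In replicate 2 the median rank was 15306 against 15000.5, with 4 of 37 peaks in the top 10% and 18 in the top 50%. Of the 41 deposited q-values, 1 was under 0.05 (2.44%), against 5.80% of all pooled peaks, and they ran from 0.0277 to 0.954. In replicate 1 the count was 1 of 34 (2.94% against 5.86%) and in replicate 2 it was 4 of 37 (10.8% against 10.1%).

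Each gene's strongest peak gives the order of the levels. In the pooled list it ran from rank 1284 at unc-62 through 4259 at nob-1 and php-3, which share that peak, 4495 at pal-1, 6206 at egl-5, 7752 at ceh-20, 9556 at vab-7 and 10097 at ceh-13 to 18321 at lin-39 and 20553 at mab-5. The median over the 10 genes lay 23.3% down the list, against 25.5% over the genes with a pooled peak. For 2018 genes the strongest peak ranked higher than that of unc-62, and for 13906 it ranked higher than that of mab-5. A strongest peak within the top 1% was found for 0 members, against 2.66% of genes. Within the top 5% there was 1, unc-62, against 11.6%, within the top 10% again 1 against 20.5%, and within the top 20% there were 4 against 34.2%. These counts are too small to be told from the background. The members' windows were longer than usual, and these comparisons with all genes were not matched for window length.

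This order was not stable between libraries. In replicate 1 the strongest peak ranked 600 at unc-62 and 2455 at pal-1, but 12457 at nob-1 and php-3 and 20661 at ceh-20. In replicate 2 it ranked 1152 at pal-1, 1184 at unc-62, 2462 at nob-1 and php-3, and 5455 at ceh-20. unc-62 and pal-1 were thus the highest-ranked genes in both replicates, but not through the same sites. The strongest unc-62 summit was 4504153 in replicate 1 and 4499352 in replicate 2, and that of pal-1 was 4805226 and 4808124. nob-1, php-3 and ceh-20 were high in replicate 2 alone, again through different sites. Their strongest summits in replicates 1 and 2 were 12079543 and 12077489 at nob-1 and php-3, and 6980634 and 6981292 at ceh-20. Among the members, only at ceh-13 did the strongest peaks of the replicates overlap. The median over members was 46.6% down the list in replicate 1 and 20.01% in replicate 2, against 27.7% and 25.7% over genes with a peak.

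**Figure D2:**
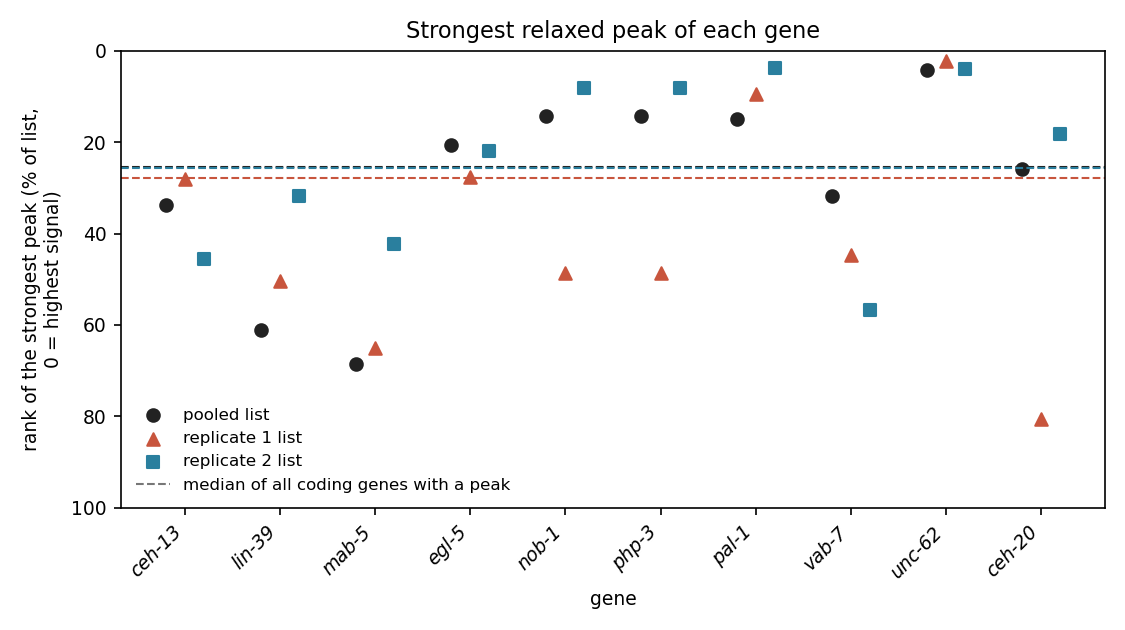
Rank of the strongest relaxed peak of each gene, as a percent of the list with 0 the highest signal at the top; symbols are the pooled, replicate 1 and replicate 2 lists and dashed lines the medians over all coding genes with a peak. unc-62 and pal-1 lie within the top 20% in all 3 lists, and the values for ceh-20 run from 18.2% in replicate 2 to 80.5% in replicate 1. The strongest peak of a gene can be a different site in each list, and only at ceh-13 did the strongest peaks of the replicates overlap.

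How many of the members' peaks recurred depended on the list counted. A pooled peak was taken as found in a replicate where a relaxed peak of that replicate overlapped it by at least 1 bp. Of the 41 pooled peaks, 15 were found in both replicates, 36.6% against 39.5% of all pooled peaks, a share near the background. A further 12 were found in replicate 1 only, 10 in replicate 2 only and 4 in neither. Over all 30000 pooled peaks these counts were 8360, 7316 and 2463. Found in replicate 1, with or without replicate 2, were 65.9% of the members' pooled peaks against 67.4% of all. For replicate 2 the shares were 61.0% against 63.9%, so these too were near the background. Counted from the replicate lists, 19 of 34 replicate 1 peaks overlapped one of replicate 2 (55.9% against 44.8% of all), and 16 of 37 replicate 2 peaks overlapped one of replicate 1 (43.2% against 39.0%). The members' share was thus below that of all peaks in the pooled list and above it in the replicate lists. The replicate 1 count includes neighbouring peaks, at egl-5 and unc-62, that overlap the same replicate 2 peak. How often this occurs over all peaks was not counted. At least 1 pooled peak found in both was present at 8 of the 10 genes, against 48.7% of all genes and 54.2% of the genes with windows in the members' range. The genes without one were lin-39 and vab-7, although lin-39 had a site where the replicates overlapped with no pooled peak. unc-62 held 7 of the 15, egl-5 and pal-1 held 2 each, nob-1 and php-3 shared 1, and ceh-13, mab-5 and ceh-20 had 1 each. 2 of the 7 at unc-62, with summits at 4506898 and 4507156, overlapped the same pair of replicate peaks.

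Where a site was found in both libraries, its ranks often differed. None of the 15 stood within the top 10% in both replicates, against 7.77% of the 11861 pooled peaks found in both, and none within the top 20%, against 15.1%. Within the top 50% in both were 4, or 26.7%, against 42.8%. The 4 include both unc-62 peaks, at 4506898 and 4507156, that overlap the same pair of replicate peaks. With 15 peaks, a count of 0 permits a share as high as 20%, so the shares at 10% and 20% cannot be told from those of all peaks. The gap between the rank percentiles had a median of 31.9 points, against 23.4 over all such peaks, and reached 96.5 points. 11 of the 15 stood relatively higher in replicate 2 and 4 in replicate 1, where over all such peaks the counts were 6079 and 5782. The 11 also include both of these unc-62 peaks.

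**Figure D3:**
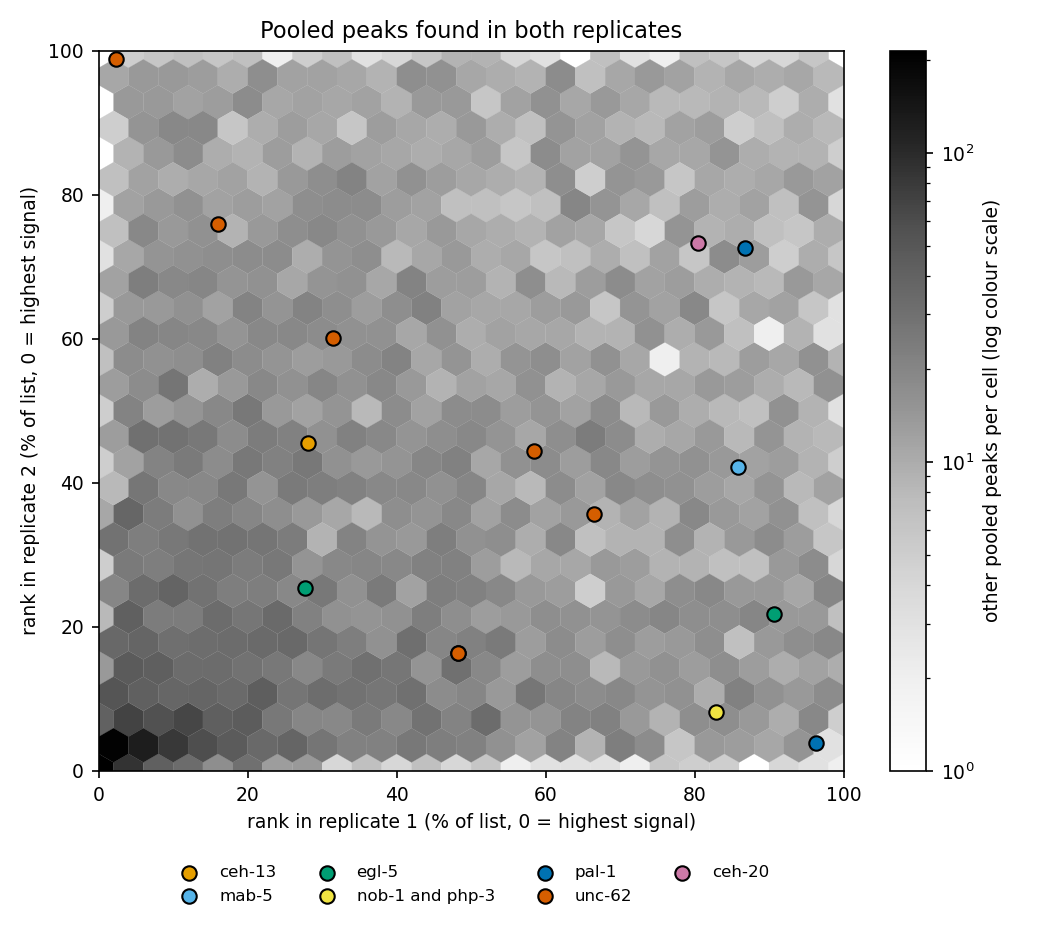
Ranks in replicate 1 (horizontal) and replicate 2 (vertical), each as a percent of the list with 0 the highest signal, for pooled peaks found in both; coloured points are the members' 15 peaks, of which 2 at unc-62 coincide, and grey cells count the other peaks on a log colour scale. No coloured point lies in the lower left corner, where other peaks are densest.

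T-box letters were about as common here as at other peaks. Among the members' 41 windows, which reach 100 bp to each side of the summit, AGGTGTGA stood in 0, against 0.453% of all pooled windows. GGTGTGA stood in 1 (2.44% against 1.73%), in the nob-1 intron upstream of php-3, and GGTGTG in 3 (7.32% against 6.06%), at egl-5, nob-1 and php-3, and vab-7, a count that contains the longer form. TGATNNAT stood in 8 (19.5% against 14.0%) and TGACAG in 2 (4.88% against 7.11%). A match is a description of letters, not a bound site.

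By annotation at the summit, introns were the most common place. Of the 41 summits, 20 lay in introns (48.8% against 27.9% of all pooled summits), 10 in coding exons (24.4% against 35.2%) and 5 between genes (12.2% against 25.9%). In 5′ UTRs lay 3 (7.32% against 1.91%), all at unc-62. A 3′ UTR held 1 (2.44% against 4.27%) and noncoding exons held 2 (4.88% against 4.88%). The window rule takes gene bodies and their edges, so it sets part of this split. A coding start of some gene lay within 1000 bp of 23 summits, 56.1% against 47.0%. The GC content of the windows had a median of 43.3% against 39.8%. A noncoding gene lay within 250 bp of 2 summits, 4.88% against 13.1%: the ncRNA gene C07H6.11 downstream of lin-39 and F31E3.8 at ceh-20.

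unc-62, the Meis gene, had the most peaks and the strongest pooled peak. It lies on V from 4497461 to 4511449 on the plus strand and has 18 coding transcripts with 15 distinct starts in the annotation. It is the only member off chromosome III. Its strongest pooled peak (4503965 to 4504354, signal 51.7, rank 1284) had its summit in a coding exon, 199 bp from an internal start of the gene. The peak stood at rank 600 in replicate 1 and 29639 in replicate 2, so its place near the top rests on replicate 1. The second (summit 4501350, rank 3381) lay 32 bp from another internal start, in a coding exon, with ranks of 17052 and 10696 and summits within 4 bp of the pooled one in both libraries.

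Further unc-62 sites were strong in a single library. The peak with summit 4499351, in a 5′ UTR and 21 bp from a start, stood at rank 1184 in replicate 2 and was not found in replicate 1. The peak with summit 4506375, in an intron, overlapped a replicate 2 peak of rank 1250 and was not found in replicate 1. The summit of that replicate 2 peak, 4506658, lay 283 bp away, and was closer, at 240 bp, to the pooled summit at 4506898. The peak with summit 4511683, downstream of the gene, stood at 3248 in replicate 1 and was not found in replicate 2. Within 1000 bp of an unc-62 start lay 10 of its 13 pooled summits, and 12 of the 13 were inside the gene. With 15 starts, most of the gene lies close to a start.

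The peaks of the printed unc-62 windows stood at pooled rank 5449 (summit 4503449, with 4124 in replicate 1 and 22804 in replicate 2) and 7900 (summit 4510671, with 14996 and 13317). Both windows hold simple repeats, which were looked for after the letters were seen. The window at 4510671 holds TTAGGC, the worm telomere repeat unit, 10 times on the strand opposite to the one printed, where it reads gcctaa, and 0.227% of all pooled windows hold as many. The window at 4503449 holds a run of 20 C, reached by 0.153% of windows. How reads from repeated sequence were placed is not given in the sources used here, and its part in these peaks was not tested.

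pal-1, the caudal homologue (III, 4804688 to 4809576, minus strand), had 7 pooled peaks, 2 of them found in both replicates. The strongest (4807932 to 4808321, signal 36.9, rank 4495) had its summit in an intron, 33 bp from an internal pal-1 start. In replicate 2 it stood at rank 1152, the highest of any member in that list, and in replicate 1 at 24726. The second strongest (summit 4805198, rank 4882), in the 3′ UTR, showed the opposite: rank 2455 in replicate 1 and no peak in replicate 2. The other site found in both, with summit 4810991 and pooled rank 20432, lay inside the neighbouring gene C38D4.7, with ranks of 22267 and 21771. A stronger pooled peak than any at pal-1, with signal 42.0 and rank 2785, lay 2422 bp from the gene, just outside the window. Among pooled summits of all the genes, the farthest inside the 2000 bp limit was the egl-5 peak at 1848 bp (signal 30.8) and the nearest outside it was at unc-62, at 2094 bp (signal 24.1).

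nob-1 (III, 12077793 to 12084316) and php-3 (III, 12074218 to 12077556), both on the minus strand, lie 0.236 kb apart and share peaks. Their strongest pooled peak (12077274 to 12077663, signal 37.4, rank 4259) had its summit in the first part of php-3, in a coding exon 87 bp from its start, which is also downstream of nob-1. The replicate summits lay 1 bp and 20 bp from it, at rank 21276 in replicate 1 and 2462 in replicate 2. The site therefore recurred in position and not in strength. The peak 805 bp upstream of nob-1 (summit 12085121, rank 4847) was found in replicate 2 alone, at rank 5648, and the intronic peak at 12083415 (rank 7194) in replicate 1 alone, at rank 13508. nob-1 had 6 pooled peaks and php-3 had 3, of which 2 are common to both. The third of php-3, in an intron (summit 12075264), stood at pooled rank 28912 and at 5760 in replicate 2.

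egl-5, the tail Hox gene (III, 7814374 to 7817141, plus strand), had the site with the most even ranks. Its strongest pooled peak (7814976 to 7815365, signal 33.7, rank 6206), in an intron 797 bp into the gene, stood at rank 7105 in replicate 1 and 7626 in replicate 2, with summits at 7815065 and 7815153. This is the only member site within the top 30% of all 3 lists. A second peak 1848 bp upstream (summit 7812526, rank 8346) stood at 6550 in replicate 2 and 23257 in replicate 1. The third, at 7815841 (rank 19314), was found in neither replicate.

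ceh-13 (III, 7555660 to 7558041, plus strand) had 2 pooled peaks. The stronger (summit 7558291, signal 28.9, rank 10097) lay 250 bp beyond the 3′ end of the gene, with ranks of 7224 and 13679 in the replicates and summits 3 bp and 272 bp away. The weaker (summit 7555944, rank 23135) lay in a coding exon 284 bp from the start, and was found in replicate 2 alone, at 18631.

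lin-39 and mab-5, which act in the mid-body and the posterior body, had the lowest-ranked strongest peaks in the pooled list. In replicate 1 that place was held by ceh-20 and in replicate 2 by vab-7. At lin-39 (III, 7528641 to 7536632, minus strand) the stronger of 2 pooled peaks, rank 18321, lay 1252 bp downstream of the gene at the ncRNA gene C07H6.11. It was found in replicate 1 alone, at 12948, and its closest coding start was that of lig-4, 5926 bp away. The other, rank 23215 in an intron, was found in replicate 2 alone, at 9552. Replicate 2 also had a peak 246 bp upstream of lin-39, at rank 11846, with no counterpart in the other relaxed lists. A replicate 1 peak in a coding exon (summit 7534432, rank 15271) overlapped a replicate 2 peak in a 5′ UTR (summit 7534729, rank 28219), 76 bp from a lin-39 start, with summits 297 bp apart and no pooled peak there. At mab-5 (III, 7776835 to 7783454, minus strand) the stronger pooled peak, rank 20553, lay inside the neighbouring gene bath-15, 156 bp from its start. The other, an intronic peak with summit 7780681 and pooled rank 26674, was found in both replicates, at 22008 and 12681.

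vab-7, the even-skipped homologue (III, 10920344 to 10926041, plus strand), is known to act in a regulatory network with tbx-8 and tbx-9. It had 3 pooled peaks, all inside the gene and none found in both replicates. The strongest (summit 10924493, signal 29.5, rank 9556), in an intron, stood at rank 11451 in replicate 1. The single replicate 2 peak, with summit 10923899 at rank 17015, overlapped no pooled peak. ceh-20, the PBX gene (III, 6979884 to 6981785, plus strand), had 2, both with the summit in coding exons. The stronger (summit 6981338, rank 7752) was found in replicate 2 alone, at 5455, and the weaker (rank 22946) in both, at 20661 and 21997. The closest coding start to the stronger was that of F31E3.6, 743 bp away, against 1454 bp to the start of ceh-20.

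The DNA between neighbouring Hox genes differed between the pairs. The 19.03 kb between lin-39 and ceh-13 (III, 7536633 to 7555659) held no pooled peak, no replicate 1 peak and 1 replicate 2 peak, the peak just upstream of lin-39. When chromosome III was cut into 724 tiles of this length, the median tile held 5 peaks in each list, and 7.32% of tiles held no pooled peak. From the last pooled summit in lin-39 to the first in ceh-13 was 25.8 kb, and 42 of the 4279 gaps between neighbouring pooled summits on III were at least as long. The GC content of the stretch was 32.9%, against 35.7% for the chromosome, and GC content, mappability and depth as sources of the gap were not tested. The stretch was singled out after its peaks were seen, and it is a description of these lists.

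The 30.9 kb between mab-5 and egl-5 (III, 7783455 to 7814373) held 7 pooled peaks, 6 in replicate 1 and 11 in replicate 2. 40.7% of the 445 tiles of this length held as few pooled peaks or fewer. Of the 7, 3 were found in both replicates, and 2 of these ranked above all but 1 of the members' own peaks. The peak with summit 7794314, in a coding exon of cyk-7, the gene that lies between them, had a signal of 42.6 and rank 2621, with ranks of 9099 and 3208 in the replicates. The peak with summit 7792089, between genes and 8635 bp from mab-5, had a signal of 42.4 and rank 2669, with 5086 and 8466. The third is the peak 1848 bp upstream of egl-5.

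**Figure D4:**
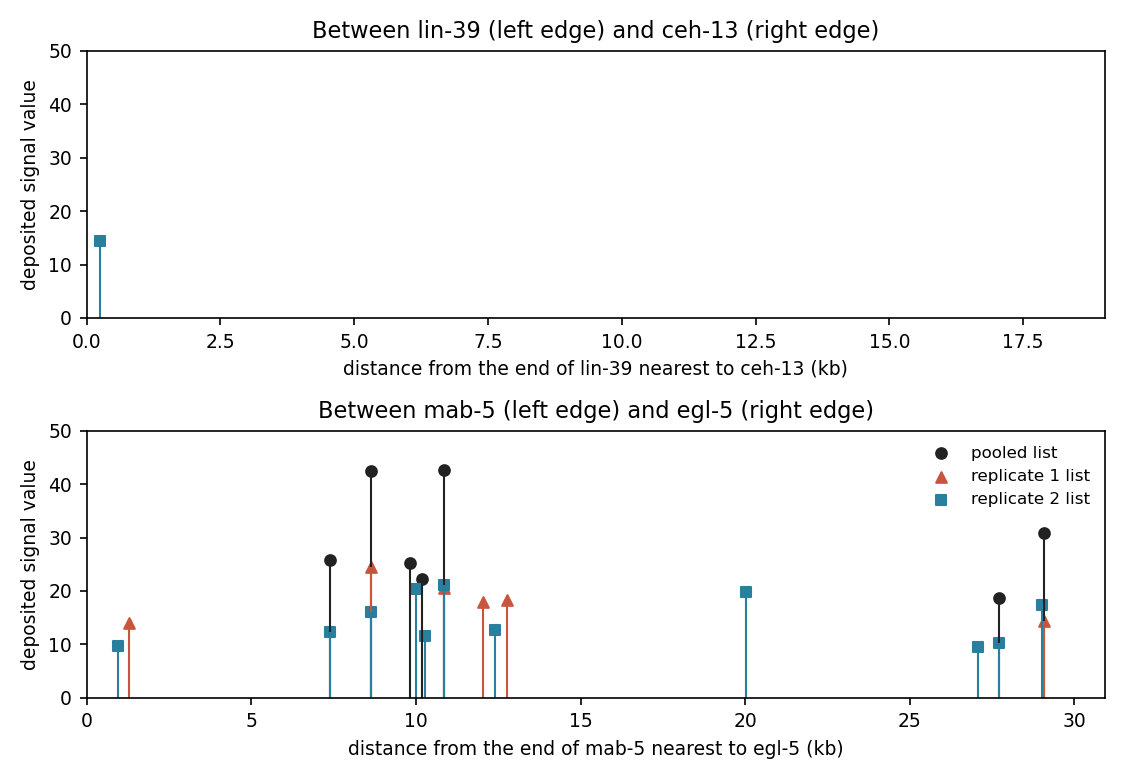
Deposited signal value (vertical) of relaxed peaks between neighbouring Hox genes against the distance in kb from the left gene (horizontal), with lin-39 to ceh-13 above and mab-5 to egl-5 below; symbols are the pooled, replicate 1 and replicate 2 lists, whose signal scales differ. The upper stretch holds 1 peak of replicate 2, and the lower holds 7 pooled peaks with 5 of them between 7 and 11 kb from mab-5.

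Other genes that act with the Hox genes were counted in the same way, from a list of 47 genes, all present in the annotation. Of these, 44 had a pooled peak (93.6%), 33 had a peak found in both replicates (70.2%), and 1 had an IDR peak (2.13%), against 80.1%, 48.7% and 1.48% of all genes. Among the 10146 genes with windows in the members' range the first 2 shares were 85.4% and 54.2%. The median window was 8.46 kb and the strongest pooled peak lay at a median of 21.6% of the list, close to that of the members. Peaks found in both replicates were present at 3 of 5 Wnt ligand genes, 4 of 6 Wnt receptor genes and 7 of 8 genes of Wnt signal transduction. They were present at 3 of 5 genes for beta-catenins and TCF, 1 of 3 further cofactor genes and 7 of 12 partners or targets. All 8 genes of a class of Hox regulators had such a peak: sop-2, sor-1, mes-2, mes-3, mes-6, egl-27, lin-49 and lin-59. With 48.7% of all genes holding such a peak and 3 to 12 genes a class, nothing is read from a single class.

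The gene with IDR peaks was tbx-9, the gene that the strain also carries as a tagged transgene. What part the transgene has in these peaks was not tested. tbx-9 had 2 IDR peaks and a pooled rank of 172. The next highest were mes-6, a subunit of the worm Polycomb complex (rank 449, with 461 in replicate 2 and 1536 in replicate 1), hmp-2, a beta-catenin of cell junctions (483), lit-1, a Nemo-like kinase (915), and egl-27, an MTA homologue (964). The window of lit-1 is 26.4 kb long and that of egl-27 16.9 kb, so they take in more peaks than most. tbx-8, the paralogue of tbx-9, and mab-9, a further T-box gene, had no pooled peak in their windows, and neither did the Wnt ligand gene cwn-2. tbx-8 had 2 peaks in replicate 1 and 4 in replicate 2, cwn-2 had 1 in each, and mab-9 had 0 in both.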

How the data were processed

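Values came from 4 ce11 peak lists deposited by the authors. Per the deposited notes, the relaxed lists derive from alignments of 1 or both libraries and the IDR list derives from the relaxed lists. No aligner or peak caller is named in what was available. The deposited signal value is the authors' own measure of a peak and its scaling is not stated. The deposited −log10 q was converted to q, and summits come from the deposited offsets. The lists give no read counts, so depth is unknown. The 4 ce10 lists were not used.

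Coordinates count from 1. Genes are those of Ensembl release 115 and letters those of RefSeq, both for WBcel235, which is ce11. No ce11 peak ended beyond its chromosome. A rank is the position by signal over all peaks of a list, and a percentile is that rank as a percent of the list. A pooled peak found in a replicate overlapped one of its peaks by at least 1 bp, and the rank given is that of the peak with the closest summit. Motif letters were sought on either strand up to 100 bp from a summit.

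Members, gene lists and motifs were chosen with earlier results of these data known. The text names all 10 members, each member's strongest pooled peak and its peaks found in both replicates, the closest coding start, and, of the other genes, those with an IDR peak and the 5 with the highest-ranked pooled peak. Peaks and genes beyond these, the low-complexity letters and the chromosome tiles were chosen after their values were seen. No significance test was made, since 1 group of 2 libraries has no contrast; whether the libraries came from separate cultures is not stated beyond the word biological. Counting, matching and the motif search were checked on simulated peaks. Tables were made in pandas 2.3.3 and numpy 2.4.6 and plots in matplotlib 3.10.9, under Python 3.11.15.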

Additional observations from a re-analysis of the deposited data

How the results depend on the processing

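No paired analysis was possible because there is 1 group and no contrast. Of 41 alternatives, 36 left a count within 1.5 times of its value, or the median rank within 18.8 points, the SD of the medians of the replicates, and 5 moved it further. That SD comes from the medians of the replicates alone, which are themselves among the alternatives, so it is too wide to show that the median rank is stable. With the 15000 strongest pooled peaks the members' windows held 21 peaks. With the 5000 strongest they held 6, at 4 of the genes, of which 4 were found in both replicates. Both follow from the shorter list. With replicate 1 alone the median rank of the strongest peak was 46.6% of the list and with replicate 2 alone 20.01%, against 23.3%, and the cause was not tested. Peak counts in the windows were 34 to 37 with a single replicate, and all 10 genes kept a peak. The count of peaks found in both replicates was 12 with 50% reciprocal overlap, 12 with summits at most 200 bp apart and 20 with a window of 5000 bp, in place of 15. The count of genes with an IDR peak was 0 under the alternatives run, which were windows of 500, 1000 and 5000 bp, whole-peak overlap and the higher-signal part of the list. Leaving out summits inside another coding gene, an alternative chosen after seeing the data, left 38 peaks, 14 of them found in both. What limits all counts is that the relaxed lists hold background by construction and that what ended them is not stated, so a place with no relaxed peak is not shown to lack binding.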
